A study of Rattus norvegicus with 9 samples.

Results

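The transcripts of 7 non-fibrillar collagen genes, Col4a1, Col4a3, Col4a4, Col8a1, Col9a1, Col15a1 and Col18a1, were followed through 9 RNA-seq libraries of cultured rat cardiac fibroblasts. The genes were taken by symbol from a table of 17337 genes, which holds 27 collagen genes in all. The cells came from hearts of Sprague Dawley rats at embryonic day 18 (fetal), postnatal day 1 (neonatal) and 7 weeks (adult), with 3 libraries per age. At every age the cells were at passage 0, were not treated with any agent named in the labels, and were grown to confluency with serum and ascorbic acid, a cofactor of the collagen hydroxylases. Nothing in the labels says that the 3 libraries of an age came from separate animals or isolations, so the p-values measure the spread between these libraries, which may be technical. No sorting step is given, so each library holds the RNA of every cell in its flask, and fewer cells of a type cannot be told apart from less RNA per cell.

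Type IV collagen is the network-forming collagen of basement membranes, the thin sheets that underlie epithelium and endothelium and wrap muscle cells. Its chains fold into trimers in set combinations. Col4a1 encodes a chain of the widespread network, which pairs with the product of Col4a2, while Col4a3 and Col4a4 encode chains of a more restricted network best known from the filtering membranes of kidney and lung. Col15a1 and Col18a1 encode multiplexins, collagens with many breaks in the triple helix that carry sugar chains and lie in or beside basement membranes. The end of the Col18a1 product can be released as endostatin. Col8a1 encodes a short-chain collagen of vessel walls, and Col9a1 a collagen that decorates cartilage fibrils.

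The libraries held 13392825 to 22850491 assigned counts, the adult ones being the shallowest (13392825 to 13810825). Abundances are TMM-scaled counts per 1000000 (CPM), given as mean ± SD over n = 3 libraries. Of 12 fibroblast markers fixed for the check all were in the table, summing to 37323 to 103367 CPM per library. Col1a1, Col3a1 and Fn1 weighed most in these sums. The lowest sum was that of fetal replicate 3, against 77820 and 79314 CPM in the other fetal libraries. Of the 12, 3 were higher in it than in both. Col1a2, usually abundant in fibroblasts, had only 80 counts over the 9 libraries. Fetal replicate 3 stood apart. Its 11 epithelial markers summed to 315.8 CPM, against 10.3 and 11.9 CPM in fetal replicates 1 and 2 and 2.45 to 4.35 CPM at the later ages. All 11 were higher in it than in both other fetal libraries. The 10 lung epithelial markers in the table summed to 44.7 CPM in it, against 4.64 and 5.20 CPM in the other fetal libraries. Of these 10, 6 were higher in it than in both. They summed to 3.47 to 4.40 CPM in neonatal and 15.9 to 17.8 CPM in adult libraries. Macrophage markers summed to 15.3 to 75.6 CPM in fetal, 166.6 to 183.5 in neonatal and 4671 to 6417 CPM in adult libraries. The highest fetal sum was that of replicate 3, where all 12 were higher than in both other fetal libraries. Adult libraries exceeded all younger ones for each of the 12. Over all genes tested, adult libraries did not overlap fetal ones for 71.8% and neonatal ones for 76.1%, either direction counted. Results below are also given without fetal replicate 3 where that library changed a call or a count of calls.

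The sequences upstream of 5 of the genes are shown because of how these genes are arranged and how they moved. Each is the RefSeq window on GRCr8 from 250 bases before to 50 after the annotated start of the gene, read 5′ to 3′ on the strand of the gene. Col4a3 and Col4a4 lie head to head, and their windows share 88 bases, which are in capitals in both.
Col4a3 (chr9:91323740-91324039, + strand): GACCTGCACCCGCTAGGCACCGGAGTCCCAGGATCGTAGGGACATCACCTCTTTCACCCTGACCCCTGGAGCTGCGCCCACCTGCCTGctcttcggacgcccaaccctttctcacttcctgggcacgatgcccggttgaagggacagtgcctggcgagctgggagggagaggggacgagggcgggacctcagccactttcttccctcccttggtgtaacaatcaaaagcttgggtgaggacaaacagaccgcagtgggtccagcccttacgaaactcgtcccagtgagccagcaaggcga
Col4a4 (chr9:91323528-91323827, - strand): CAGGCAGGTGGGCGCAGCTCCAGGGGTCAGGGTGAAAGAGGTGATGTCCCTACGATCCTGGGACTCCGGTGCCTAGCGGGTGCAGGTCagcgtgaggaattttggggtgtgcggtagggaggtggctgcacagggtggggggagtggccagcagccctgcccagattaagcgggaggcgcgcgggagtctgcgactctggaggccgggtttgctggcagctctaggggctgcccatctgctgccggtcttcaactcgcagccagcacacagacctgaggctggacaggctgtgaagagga
The annotated starts of this pair are 413 bases apart on GRCr8 and 568 bases apart in the rn6 annotation used for the counts. Each window reads the shared stretch on its own strand, and the stretch lies upstream of both starts.

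In the windows of Col4a1, Col15a1 and Col18a1 the capitals mark GC boxes (GGGCGG, bound by Sp factors) and CCAAT boxes (CCAAT, bound by NF-Y), searched on both strands.
Col4a1 (chr16:84885347-84885646, + strand): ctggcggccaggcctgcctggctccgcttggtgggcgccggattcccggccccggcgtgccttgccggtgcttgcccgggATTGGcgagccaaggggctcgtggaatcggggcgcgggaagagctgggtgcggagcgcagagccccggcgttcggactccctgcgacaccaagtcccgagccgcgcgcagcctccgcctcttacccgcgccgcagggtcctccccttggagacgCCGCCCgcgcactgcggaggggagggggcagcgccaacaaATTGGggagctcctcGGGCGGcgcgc
Col15a1 (chr5:66297296-66297595, + strand): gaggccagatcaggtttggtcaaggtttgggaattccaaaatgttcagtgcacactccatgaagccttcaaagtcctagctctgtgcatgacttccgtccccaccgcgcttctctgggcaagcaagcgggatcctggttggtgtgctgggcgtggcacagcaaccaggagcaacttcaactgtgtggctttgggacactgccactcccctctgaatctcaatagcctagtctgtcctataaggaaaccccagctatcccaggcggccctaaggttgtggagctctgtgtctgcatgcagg
Col18a1 (chr20:11473395-11473694, + strand): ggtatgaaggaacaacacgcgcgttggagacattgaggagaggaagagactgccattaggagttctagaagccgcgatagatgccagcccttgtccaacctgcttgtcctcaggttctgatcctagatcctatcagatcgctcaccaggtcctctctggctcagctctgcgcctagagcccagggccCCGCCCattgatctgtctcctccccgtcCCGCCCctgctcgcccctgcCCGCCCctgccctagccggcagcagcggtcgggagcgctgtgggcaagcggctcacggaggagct
The Col4a1 window held 2 GC boxes and 2 CCAAT boxes, and 75% of its bases were G or C. The Col18a1 window held 3 GC boxes and no CCAAT box, with 62.7% G or C. Neither motif was in the Col15a1 window, of which 55% was G or C. Of 33469 rat windows of this length, 33.1% held a GC box and 37.5% a CCAAT box, and the median window had 51.7% G or C. The Col8a1 window held 4 GC boxes, the Col4a3 window 1, and those of Col4a4 and Col9a1 none. The TATA box (TATAAA), held on either strand by 14.2% of all windows, was in none of the 7. The same was true of the AP-1 site (TGANTCA), held by 7.33%, and of the TEAD site (CATTCC), held by 14.2%. No matches overlapped in the 5 windows shown, and a match describes the letters only.

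Of the 7 genes, 6 passed the filter on low counts and were tested. Col9a1 did not, and its counts are described further on. Between fetal and neonatal cells Col4a1 and Col15a1 rose and Col4a3 and Col4a4 fell, so that 4 of the 6 passed the threshold, where 36.3% of all 11337 genes did (18.3% higher and 18.0% lower). Between neonatal and adult cells 5 of the 6 fell and none rose, all but Col15a1, against 63.5% of all genes called (31.6% higher and 31.8% lower). Between fetal and adult cells Col15a1 rose and Col4a3, Col4a4 and Col18a1 fell, 4 of 6 against 70.5% of all genes (34.9% higher and 35.5% lower). The median log2 fold change of the 6 was 0.36, -1.34 and -0.79 in these comparisons, beside medians of -0.0053, -0.0065 and -0.0127 over all genes tested. The libraries of the ages compared did not overlap for 5, 5 and 4 of the 6, against 57.4%, 76.1% and 71.8% of all genes. Without fetal replicate 3 all 6 were called between fetal and adult cells, as were 74.8% of the 11519 genes tested in that fit. The 3 comparisons share libraries, so they are not independent of each other.

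**Figure D1:**
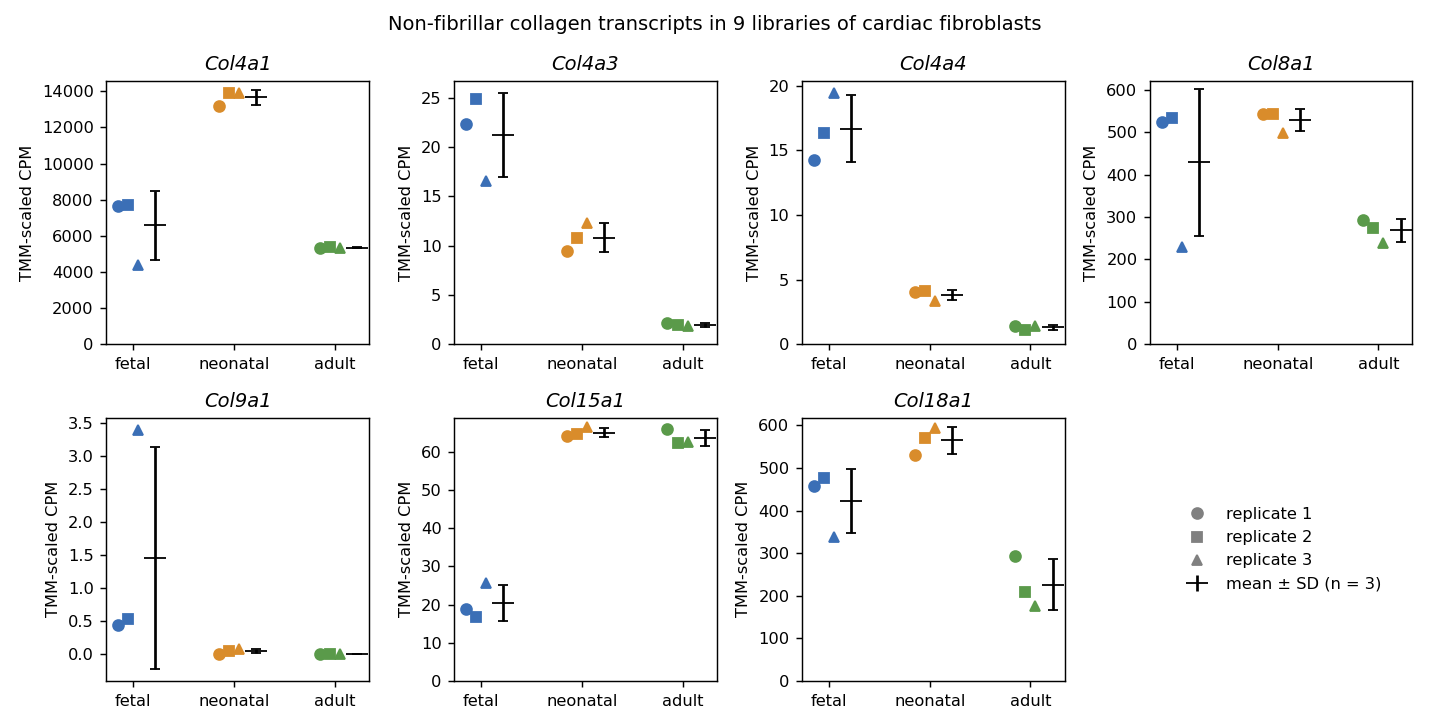
TMM-scaled CPM of the 7 collagen genes by age, 1 point per library with a symbol shape for each replicate number, and the mean ± SD of 3 libraries beside the points. Fetal replicate 3 is low for Col4a1 (4363 CPM) and Col8a1 (230 CPM) and high for Col9a1 (3.40 CPM).

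Col4a1 (chromosome 16, 83522162 to 83632153, rn6, 52 exons) was the most abundant of the 7 by far. It stood at 7659, 7722 and 4363 CPM in fetal replicates 1 to 3, at 13185, 13931 and 13887 CPM in the neonatal libraries and at 5334, 5394 and 5306 CPM in the adult libraries. Every neonatal library was above every fetal and adult one, while the adult libraries fell between fetal replicate 3 and the other fetal libraries. The gene rose 2.08-fold from fetal to neonatal cells (log2 1.05, SE 0.19, edgeR adjusted p = 0.00332). It then fell 2.56-fold from neonatal to adult cells (log2 -1.35, SE 0.19, edgeR adjusted p = 0.000249).

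Between fetal and adult cells the difference in Col4a1 did not pass the threshold (log2 -0.30, 95% interval -0.73 to 0.13, edgeR adjusted p = 0.187). That outcome rested on fetal replicate 3. Without it the fetal mean was 7690 CPM instead of 6581 ± 1921 CPM, and adult cells were lower (log2 -0.53, SE 0.05, edgeR adjusted p = 4.74e-06, within 4.74e-06 to 0.477 over the alternatives). The neonatal rise was 0.83 on the log2 scale without that library (edgeR adjusted p = 1.09e-06). Col4a1 varied little between adult libraries, with a coefficient of variation of 0.838%, against 29.2% between fetal ones.

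Col4a3 and Col4a4 were both highest in fetal cells and lower at each later age. Col4a3 (chromosome 9, 88357751 to 88484376, rn6, 52 exons) stood at 22.4, 24.8 and 16.5 CPM in fetal, 9.41, 10.7 and 12.3 CPM in neonatal and 2.14, 1.95 and 1.80 CPM in adult libraries. The 3 ages did not overlap. In counts, the adult libraries held 24 to 28 reads of the gene, so adult levels rest on few reads. Col4a3 fell 1.97-fold from fetal to neonatal cells (log2 -0.98, SE 0.17, edgeR adjusted p = 0.00249). The fall from neonatal to adult cells was 5.49-fold (log2 -2.46, SE 0.20, edgeR adjusted p = 8.23e-06), and the whole span from fetal to adult cells 10.8-fold (log2 -3.43, SE 0.20, edgeR adjusted p = 5.54e-07).

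Col4a4 (chromosome 9, 88314763 to 88357183, rn6) is annotated with only 7 exons and 1152 bases on rn6, so its reads cover a part of what a full chain would need. It stood at 14.3, 16.3 and 19.4 CPM in fetal, 4.02, 4.09 and 3.37 CPM in neonatal and 1.38, 1.08 and 1.42 CPM in adult libraries, again without overlap between ages. Unlike Col4a3, it was highest in fetal replicate 3. The adult libraries held 15 to 19 reads of it. Col4a4 fell 4.34-fold from fetal to neonatal cells (log2 -2.12, SE 0.17, edgeR adjusted p = 4.93e-05) and 2.96-fold from neonatal to adult cells (log2 -1.56, SE 0.20, edgeR adjusted p = 0.000129). From fetal to adult cells it fell 12.8-fold (log2 -3.68, SE 0.20, edgeR adjusted p = 3.03e-07). Over the 9 libraries the log2 CPM of this head-to-head pair correlated at r = 0.92, a description only, since age separates the libraries.

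Ratios within a library do not depend on how libraries are scaled. Per kilobase of exon, the log2 ratio of Col4a3 to Col4a1 was -7.86 ± 0.19 in fetal, -9.92 ± 0.16 in neonatal and -11.0 ± 0.12 in adult cells. The ages did not overlap, and the ratio was 8.97-fold lower in adult than in fetal cells. Each of the 3 pairs of ages gave an exact two-sided permutation p of 0.1, the smallest that 3 against 3 libraries allow, and 0.136 after adjustment over the 30 tests of ratios and shares. The log2 ratio of Col4a4 to Col4a3 was 1.78 ± 0.50, 0.63 ± 0.33 and 1.52 ± 0.26 at the 3 ages, lower in every neonatal library than in any other (exact permutation p = 0.1 against either age). Between fetal and adult cells this ratio overlapped (difference -0.27, exact permutation p = 0.6), and its fetal value was 2.36 in replicate 3 against 1.47 and 1.52 in replicates 1 and 2.

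**Figure D2:**
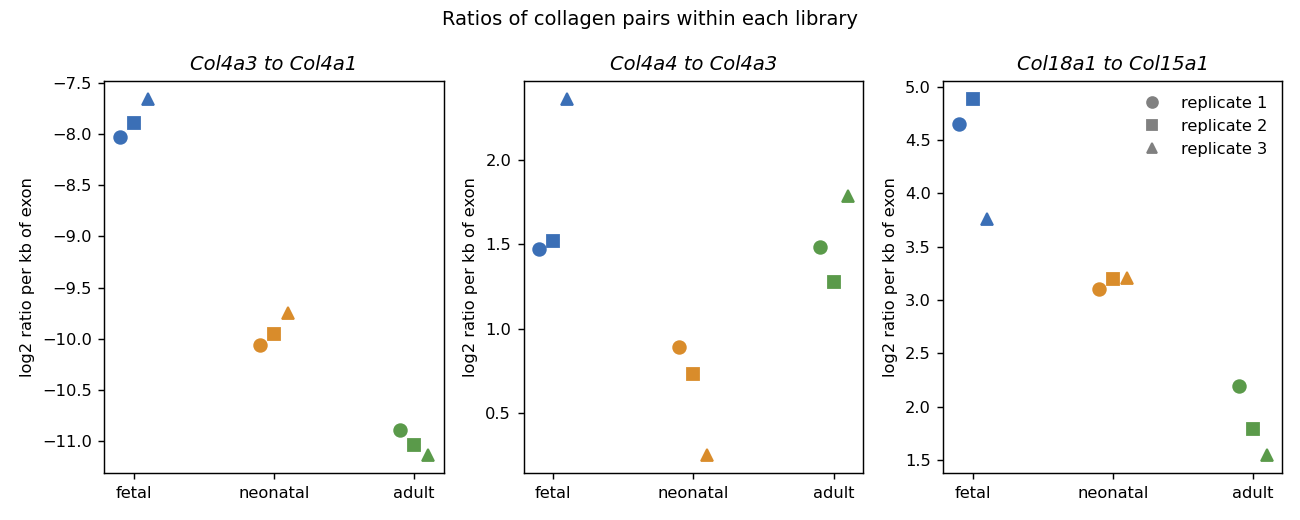
Log2 ratios per kilobase of exon within each library for 3 pairs of genes, by age, with a symbol shape for each replicate number. Col4a3 to Col4a1 steps down from -7.86 through -9.92 to -11.0 on average, Col4a4 to Col4a3 is lowest in neonatal libraries, and Col18a1 to Col15a1 falls from 4.44 to 1.85.

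The multiplexin genes differed in direction. Col15a1 (chromosome 5, 62840360 to 62950240, rn6, 40 exons) stood at 18.8, 16.7 and 25.8 CPM in fetal, 64.2, 64.6 and 66.4 CPM in neonatal and 66.1, 62.3 and 62.7 CPM in adult libraries. Every neonatal and adult library was above every fetal one, and the later ages overlapped each other. It rose 3.19-fold from fetal to neonatal cells (log2 1.67, SE 0.14, edgeR adjusted p = 5.38e-05) and was 3.12-fold higher in adult than in fetal cells (log2 1.64, SE 0.14, edgeR adjusted p = 5.40e-06). Between neonatal and adult cells it did not pass the threshold (log2 -0.03, 95% interval -0.33 to 0.27, edgeR adjusted p = 0.850). It was the only tested gene of the 6 called higher in adult than in fetal cells.

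Col18a1 (chromosome 20, 12225202 to 12332858, rn6, 41 exons) stood at 457, 476 and 337 CPM in fetal, 531, 571 and 593 CPM in neonatal and 292, 208 and 176 CPM in adult libraries. All neonatal libraries lay above the fetal ones and all adult libraries below, with fetal replicate 3 and adult replicate 1 nearest each other. The neonatal difference from fetal cells did not pass the threshold (log2 0.42, 95% interval -0.01 to 0.84, edgeR adjusted p = 0.110), except when adult replicate 1 was left out of the fit (edgeR adjusted p = 0.0386, within 0.0386 to 0.313 over the alternatives). Col18a1 fell 2.504-fold from neonatal to adult cells (log2 -1.32, SE 0.19, edgeR adjusted p = 0.000267). It was 1.88-fold lower in adult than in fetal cells (log2 -0.91, SE 0.19, edgeR adjusted p = 0.00198).

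The log2 ratio of Col18a1 to Col15a1 per kilobase went from 4.44 ± 0.59 in fetal through 3.17 ± 0.06 in neonatal to 1.85 ± 0.33 in adult cells. That is a 6.02-fold lower ratio in adult than in fetal cells, with no overlap between ages (exact permutation p = 0.1 for each pair, 0.136 adjusted). In the fetal libraries it was 4.66, 4.89 and 3.76. Col18a1 transcripts were still the more abundant per length in every library, by 2.92-fold to 29.6-fold.

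Col8a1 (chromosome 11, 44877918 to 45006052, rn6, 4 exons) stood at 524, 535 and 230 CPM in fetal, 543, 544 and 499 CPM in neonatal and 293, 275 and 239 CPM in adult libraries. Fetal replicate 3 was below all other libraries, the adult ones included, while fetal replicates 1 and 2 were at the neonatal level. The gene fell 1.97-fold from neonatal to adult cells (log2 -0.98, SE 0.27, edgeR adjusted p = 0.0123). Between fetal and neonatal cells it did not pass the threshold (log2 0.30, 95% interval -0.32 to 0.92, edgeR adjusted p = 0.412). Between fetal and adult cells it just missed the threshold (log2 -0.68, SE 0.27, edgeR adjusted p = 0.0505). Without fetal replicate 3 that difference was -0.98 and was called (edgeR adjusted p = 5.86e-07, within 5.86e-07 to 0.166 over the alternatives), and the neonatal difference was near 0 (log2 -0.00091, edgeR adjusted p = 0.996).

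**Figure D3:**
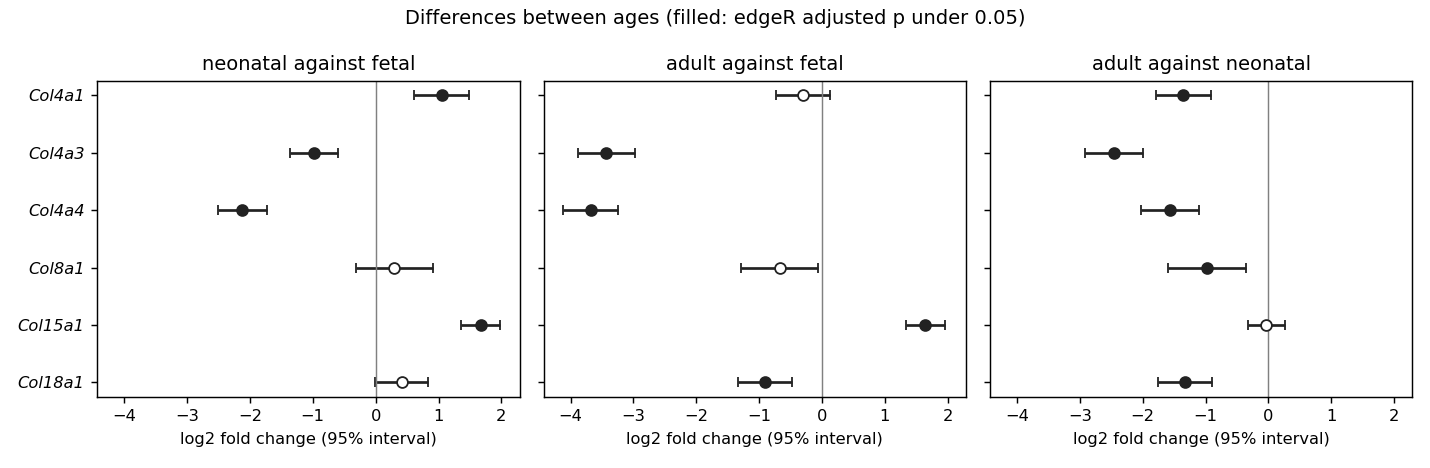
Log2 fold change of the 6 tested genes in each comparison of ages, with 95% intervals, filled where the edgeR adjusted p was under 0.05. Col4a3 and Col4a4 lie left of 0 in all 3 panels, Col15a1 lies at 1.67 and 1.64 against fetal cells and at -0.03 between adult and neonatal cells, and Col4a1 changes side.

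Col9a1 (chromosome 9, 30419001 to 30502307, rn6, 38 exons) was scarce and stayed below the filter. The fetal libraries held 8, 12 and 64 reads of it, the neonatal libraries 0, 1 and 1, and the adult libraries 0 each. Its fetal level was 0.432, 0.529 and 3.40 CPM, and replicate 3 alone held most of the reads. Against the floor of 3 counts per library, neonatal cells were at least 8.75-fold lower and adult cells at least 6.50-fold lower than the fetal mean, or 2.89-fold and 2.15-fold without fetal replicate 3. When every gene with a count was tested, with fitted fold changes that are no bound, the neonatal difference from fetal cells had an edgeR adjusted p of 0.0180 and the adult one of 0.00488. Of 10 cartilage markers in the table, Col2a1 was also highest in fetal replicate 3, at 38.3 CPM against 5.29 and 5.82 CPM, and at 0 counts in adult cells. Hapln1, at 4.94 CPM there against 0.918 and 0.882 CPM, was the other of the 2 among the 10 that exceeded both other fetal libraries. The cartilage markers together summed to 175.9 CPM in fetal replicate 3 against 219.7 and 225.0 CPM. Acan, the largest in these sums, was at 89.0 CPM there against 113.0 and 116.8 CPM, and Sox9 at 33.7 against 77.1 and 69.8 CPM. The source of the Col9a1 reads was not tested.

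Compared per kilobase of exon, the levels of the 7 genes spanned several orders of magnitude. Col4a1 ranked first at every age, at 1000 ± 292, 2077 ± 63.7 and 812 ± 6.80 CPM per kilobase in fetal, neonatal and adult cells. Col8a1 (177 ± 71.2, 217 ± 10.6 and 110.5 ± 11.4) and Col18a1 (84.5 ± 15.002, 112.8 ± 6.28 and 45.1 ± 11.99) came next, and the libraries of these neighbours overlapped in fetal cells, though not when scaled by library size alone. Col15a1 moved up the order. In fetal cells it stood at 3.93 ± 0.917 CPM per kilobase and overlapped Col4a3 (4.23 ± 0.849), whereas at the later ages it came next after Col18a1, at 12.5 ± 0.225 and 12.3 ± 0.408, above Col4a4 and Col4a3 in every library. Col4a4 stood above Col4a3 at each age, at 14.5 ± 2.27, 3.32 ± 0.346 and 1.12 ± 0.160 CPM per kilobase, but on an exon model that may be partial. Col9a1 was last throughout.

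**Figure D4:**
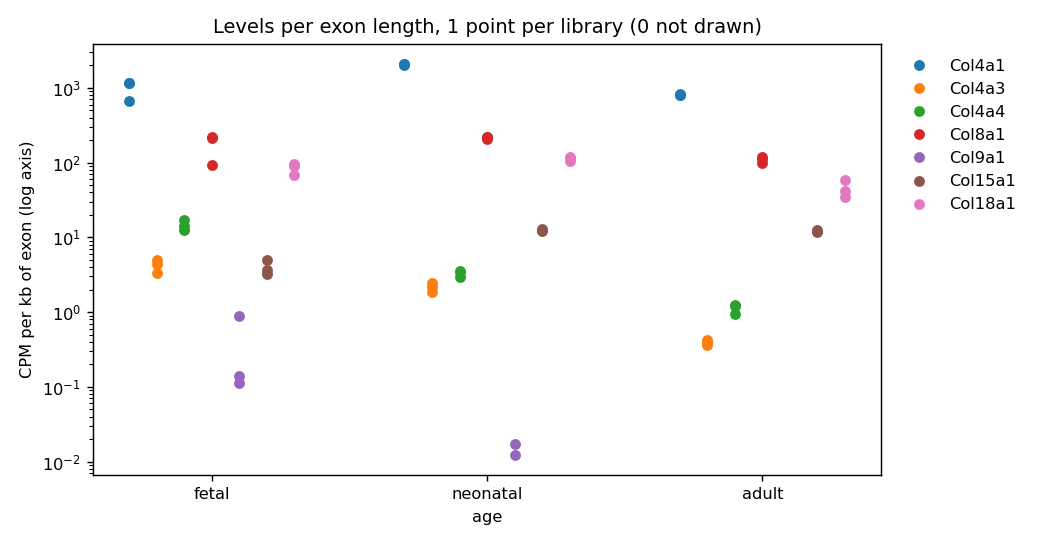
CPM per kilobase of annotated exon on a log axis for the 7 genes at each age, 1 point per library, with libraries at 0 not drawn. Col4a1 is the top group at each age, and Col15a1 changes from the level of Col4a3 in fetal cells (3.93 and 4.23) to well above it in adult cells (12.3 and 0.391).

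The 27 collagen genes took 3.96% to 6.86% of all counts in fetal, 8.76% to 9.40% in neonatal and 3.14% to 3.95% in adult libraries. Col4a1 made up 12.04% ± 0.664 of collagen reads in fetal, 14.2% ± 0.217 in neonatal and 14.7% ± 1.53 in adult cells. Its share in every neonatal and adult library was above that in every fetal one (exact permutation p = 0.1, 0.136 adjusted), and the later ages overlapped (exact permutation p = 0.7). Col15a1 made up 0.0430% ± 0.0279 of collagen reads in fetal and 0.176% ± 0.0241 in adult cells, and Col4a3 0.0400% ± 0.00756 and 0.00544% ± 0.00105. The scarcity of Col1a2 reads in this table touches every such share, since that gene adds almost nothing to the total. Of 26 other non-fibrillar collagens listed, only 9 were in the table, and Col4a2, the partner of Col4a1, was not. The shares are therefore of the 27 collagen genes in the table, not of all collagen RNA.

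The other structural genes of basement membranes were taken as a list of laminins, nidogens, perlecan and agrin, of which 10 of 15 were in the table and 9 were tested. Between neonatal and fetal cells 4 were called higher and 2 lower, with a median log2 fold change of 0.10. In adult cells 8 were lower and 0 higher than in neonatal cells (median -1.67), and 7 lower and 1 higher than in fetal cells (median -1.57). Over all genes tested, 36.3% were called between neonatal and fetal cells (18.3% higher, 18.0% lower). For adult against neonatal cells the share was 63.5% (31.6% and 31.8%), and for adult against fetal cells 70.5% (34.9% and 35.5%). The counts of this list and those below stand beside these shares, and a count near them sets no list apart. Lama4, a laminin chain of vessel and muscle basement membranes, was higher in neonatal than in fetal libraries, at 876 ± 14.2 against 496 ± 98.5 CPM (edgeR adjusted p = 0.00158). Lamb2 rose likewise from 246 ± 53.9 to 447 ± 30.5 CPM (edgeR adjusted p = 0.00221) and stood at 409 ± 14.1 CPM in adult cells, the single gene of the list called higher there than in fetal cells. Nid2, which links laminin to type IV collagen, and Lamb3, a chain of epithelial laminin, were the leading falls at each step, Nid2 to 23.1 ± 3.09 and Lamb3 to 1.46 ± 0.456 CPM in adult cells.

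Among the other non-fibrillar collagens, 9 of 26 listed were in the table and 8 were tested. From fetal to neonatal cells 3 rose and 1 fell, from fetal to adult cells 2 rose and 3 fell, and from neonatal to adult cells 1 rose and 3 fell. The medians were -0.38, -0.44 and -0.75, the last of which was -0.09 with Col13a1 and Col26a1 set to the floor of 3 counts. Col6a2, a chain of the beaded microfibrils around cells, rose from 479 ± 14.7 CPM in fetal to 1428 ± 57.5 CPM in neonatal cells (edgeR adjusted p = 5.87e-05), and stood at 1492 ± 308 CPM in adult cells. Col17a1, a transmembrane collagen, rose at each step, from 0.974 ± 0.149 through 4.57 ± 0.185 to 9.33 ± 0.961 CPM (edgeR adjusted p = 6.33e-05 and 0.000468). Col14a1, which binds fibril surfaces, fell from 3091 ± 71.0 to 1139 ± 235 CPM between neonatal and adult cells. Col13a1 had 6.02 ± 4.31 and Col26a1 3.80 ± 2.60 CPM in fetal cells, and neither exceeded 3 counts in any adult library.

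The fibrillar collagens, of which 10 of 11 were tested, had 2 genes higher and 2 lower in neonatal than in fetal cells. In adult cells 1 was higher and 7 lower than in neonatal cells, and 1 higher and 6 lower than in fetal cells. That higher gene, Col11a2, was not called with the replicate block or library size alone, or without any 1 of the 3 fetal libraries, neonatal replicates 2 or 3, or adult replicates 2 or 3. The medians were 0.18, -1.38 and -0.77, of which the second was -1.34 with Col2a1 set to its bound. Col3a1 had a course like that of Col4a1, at 12971 ± 4917, 30805 ± 959 and 9468 ± 1173 CPM at the 3 ages. Col5a3 was higher in neonatal than in fetal cells, at 193 ± 12.2 against 91.8 ± 11.5 CPM, while Col27a1 fell at every step, to 6.98 ± 0.271 CPM in adult cells, as did Col5a1 between neonatal and adult cells, from 2270 ± 123.3 to 849 ± 78.8 CPM. Col11a2 was also the gene called higher in adult than in neonatal cells, at 5.14 ± 0.225 against 3.04 ± 0.429 CPM in neonatal cells.

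Genes that fold and assemble collagen, a list not limited to those specific to type IV, moved in both directions, with 17 of 21 tested. From fetal to neonatal cells 7 rose and 0 fell, from neonatal to adult cells 2 rose and 9 fell, and from fetal to adult cells 6 rose and 7 fell. Of all genes, 36.3%, 63.5% and 70.5% were called in these comparisons, and the medians of the list were 0.13, -0.42 and -0.29. The first count fell to 3, 2 and 2 genes without neonatal replicates 1, 2 or 3, and to 3 without adult replicate 2. Without fetal replicate 3 it was 7 higher and 3 lower. Plod1, a lysyl hydroxylase, was higher in neonatal than in fetal cells, at 362 ± 6.27 against 164 ± 47.8 CPM (edgeR adjusted p = 0.00206), and the prolyl hydroxylase subunit P4ha2 rose at each step, to 359 ± 66.5 CPM in adult cells. Ppib, a prolyl isomerase of the endoplasmic reticulum, was higher in adult cells than at either younger age, at 781 ± 33.5 CPM. Sec23a, a coat protein of the vesicles that export collagen, fell from 202 ± 3.95 to 69.6 ± 2.31 CPM between neonatal and adult cells, and P3h2, a prolyl hydroxylase that modifies type IV collagen, from 23.2 ± 1.49 to 10.5 ± 1.28 CPM.

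Cell-surface matrix receptors, a list not limited to those that bind these collagens, had 7 of 10 genes tested. They were mostly highest in neonatal cells. Between fetal and neonatal cells 5 were higher and 0 lower (median 0.75), and between neonatal and adult cells 7 of 7 were lower (median -1.09). Adult cells had 1 gene higher and 4 lower than fetal cells (median -0.51). Itgb3, an integrin chain, went from 37.5 ± 5.92 through 125 ± 4.10 to 22.6 ± 2.67 CPM, and Ddr2, a collagen-binding kinase, from 218 ± 25.5 through 336 ± 16.3 to 153 ± 15.4 CPM. Dag1, the dystroglycan gene, was the receptor called higher in adult than in fetal cells, at 815 ± 32.2 against 652 ± 50.3 CPM. Itga5 fell between fetal and adult cells, from 322 ± 34.8 to 209 ± 2.98 CPM.

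Proteases that cut basement membrane collagens and their inhibitors, 12 of 16 tested, were mostly higher at the later ages. From fetal to neonatal cells 8 rose and 1 fell (median 1.17, or 1.07 with Mmp7 at its bound), and from fetal to adult cells 10 rose and 1 fell (median 2.18). From neonatal to adult cells 8 rose and 2 fell (median 1.31). Ctsb, a lysosomal cathepsin, reached 4322 ± 113 CPM in adult cells from 778 ± 0.622 CPM in neonatal cells (edgeR adjusted p = 1.77e-08). Ctss, a cathepsin known from macrophages, reached 235 ± 11.6 from 7.79 ± 1.05 CPM, in the same adult libraries that held the macrophage markers. The neonatal level of Ctsk was 85.0 ± 3.77 against a fetal 21.1 ± 5.62 CPM, and that of the inhibitor gene Timp2 703 ± 13.5 against 308 ± 42.7 CPM. Timp3, an inhibitor bound to the matrix, fell at each step, from 139 ± 16.5 through 73.2 ± 2.24 to 25.5 ± 7.07 CPM, and Mmp14 fell from 1189 ± 16.3 to 888 ± 36.5 CPM between neonatal and adult cells.

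**Figure D5:**
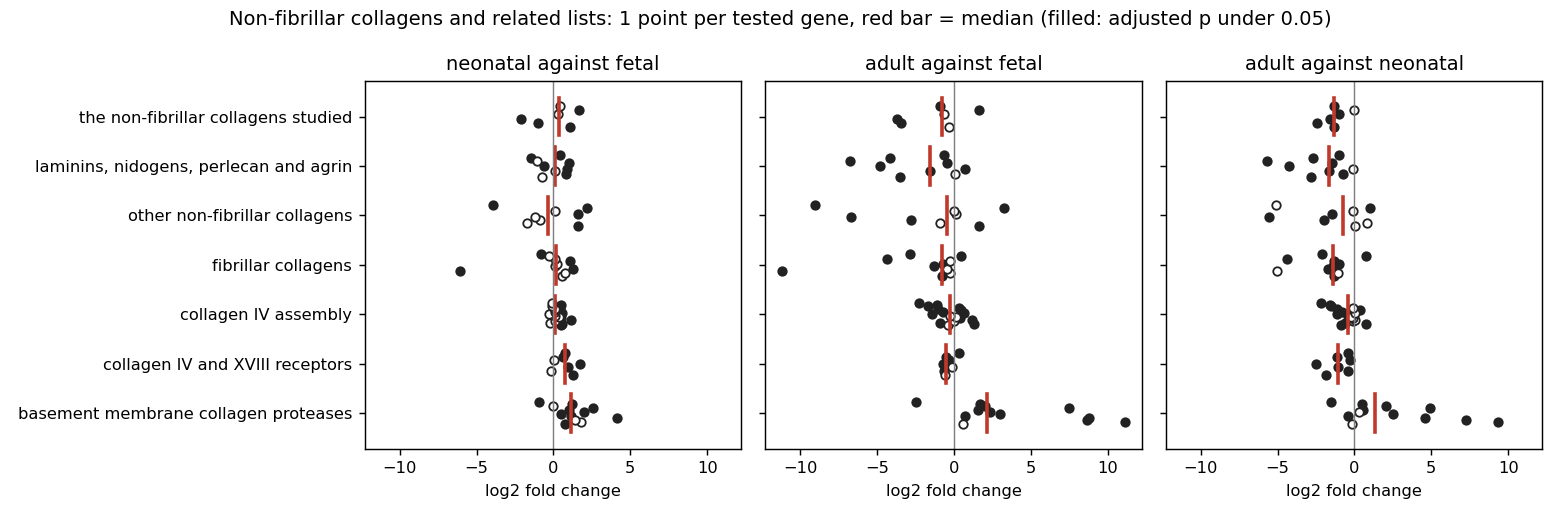
Log2 fold change of each tested gene in the 6 non-fibrillar collagens and the related lists, per comparison, with the median as a red bar and filled points where the edgeR adjusted p was under 0.05. Receptor genes lie mostly right of 0 between neonatal and fetal cells (median 0.75) and left of it between adult and neonatal cells (median -1.09), while protease and inhibitor genes lie mostly right of 0.

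Scaling by library size alone lowered the median of all genes by 0.17 between neonatal and fetal and by 0.11 between adult and fetal cells (log2 shifts of -0.17 and -0.11). The split of calls then changed for 7 of the list counts. Between neonatal and fetal cells it was 4 higher and 3 lower for the assembly list, 4 higher and 3 lower for the laminins and their partners, and 5 higher and 1 lower for the receptors. Between adult and fetal cells it was 5 higher and 9 lower for the assembly list and 0 higher and 6 lower for the fibrillar collagens. Between adult and neonatal cells it was 0 higher and 6 lower for the receptors and 9 higher and 2 lower for the proteases and inhibitors.

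Leaving out fetal replicate 3 also moved list counts. Between adult and fetal cells the receptors then had 1 gene higher and 6 lower, the fibrillar collagens 0 and 7, the other non-fibrillar collagens 3 and 3, the assembly list 6 and 9, and the proteases and inhibitors 11 and 1. Between neonatal and fetal cells the laminins and their partners had 4 higher and 3 lower and the other non-fibrillar collagens 3 and 2. Between adult and neonatal cells the other non-fibrillar collagens had 2 higher and 4 lower, the fibrillar collagens 1 and 8, the assembly list 2 and 11, and the proteases and inhibitors 9 and 3.

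For each tested collagen, the 2 genes with the most similar course were found by Pearson's r of log2 CPM over the 9 libraries. Because age separates the libraries, many genes share such a course, and the values are descriptive. Col4a1 was closest to Aplp2 (r = 0.993) and to the fibrillar collagen gene Col3a1 (r = 0.993), with 293 genes above 0.9. Col4a3 was closest to Casc4 (r = 0.997) and LOC292543 (r = 0.997), with 1822 genes above 0.9, and Col4a4 to the homeobox gene Meis1 (r = 0.996) and Uck2 (r = 0.995), with 1172. Col8a1 was closest to Fam13a (r = 0.994) and Map7d3 (r = 0.988), and Col15a1 to Eepd1 (r = 0.986) and the small GTPase gene Rab31 (r = 0.984). Col18a1 was closest to Smurf2 (r = 0.989), which encodes a ubiquitin ligase, and Zfp365 (r = 0.988). Among the 6 themselves, Col4a1, Col8a1 and Col18a1 correlated at 0.82 to 0.87, and Col4a4 and Col15a1 at -0.87.

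Markers of other cells that make these collagens also moved with age. The 10 markers of mural cells, the contractile cells of vessel walls, summed to 1779 to 2676 CPM in fetal, 2926 to 3011 in neonatal and 330 to 713 CPM in adult libraries. Rgs5, Kcnj8 and Higd1b added little to these sums, with no value above 8.70 CPM. Of the 10, 8 were lower in every adult than in every neonatal library. Kcnj8 overlapped between these ages. Higd1b was higher in every adult library, at 0.674 to 1.07 CPM against 0.0465 to 0.259 CPM in neonatal ones. Col4a1, Col4a3, Col4a4, Col8a1 and Col18a1 fell between neonatal and adult cells. Over all genes tested, the adult and neonatal libraries did not overlap for 76.1%, either direction counted, so such separation was common. The 12 endothelial markers summed to 197 to 238, 148 to 149 and 185 to 203 CPM at the 3 ages, with 6 of the 12 higher and 3 lower in every adult than in every neonatal library. Of the 12, Pecam1, Cdh5 and Tie1 were among those highest in adult libraries, at up to 10.3, 5.66 and 72.5 CPM. Kdr was lowest there, at 0.650 to 1.38 CPM against 5.17 to 5.90 CPM in neonatal libraries. Flt1, the largest marker in the sums, was also lowest there, at 72.4 to 78.8 CPM against 106.8 to 110.9 CPM in neonatal libraries. The 12 cardiomyocyte markers in the table summed to 7163 to 10729, 5022 to 5555 and 304 to 318 CPM. All 12 were lower in every adult library than in every younger one. Adult and fetal libraries did not overlap for 71.8% of all genes tested, either direction counted. Tnnt2 made up nearly all of the adult sums, at 303 to 316 CPM. No other marker of this list exceeded 0.795 CPM in an adult library. Fetal replicate 3, with the highest epithelial and lung epithelial marker sums, had the least Col4a3 and the most Col4a4 of the fetal libraries. The part of other cells in these results was not tested.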

How the data were processed

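The data are 9 total RNA libraries of rat cardiac fibroblasts, 3 per age, and the authors deposited raw counts per gene. Per the file headers, the counts were made with featureCounts 1.6.3 on an rn6 annotation with default options, so reads were counted without strand and reads mapped to several places were left out. The submitters' processing notes also name FastQC, Trimmomatic 0.39, STAR 2.5.2b and DESeq2. The table's exon length per gene, per the file headers, served to compare levels between genes. In a second table the authors deposited normalized signal values for 12786 genes. Dividing each library by a single size factor gave its values, with 100% of values whole to within 0.1 reads. The reads so recovered equalled the deposited counts in 100% of values. As an alternative source of counts, this table was therefore no independent check.

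All 17337 genes entered one edgeR 4.0.16 model (R 4.3.3, robust quasi-likelihood, TMM scaling) with age as the only term over all 9 libraries. The 11337 genes kept by filterByExpr were tested, with Benjamini-Hochberg adjustment over them and a threshold of 0.05. CPM are counts per 1000000 TMM-scaled counts. Log2 CPM used a prior count of 2. Standard errors were derived from the F statistic of each fold change, and 95% intervals from the model's degrees of freedom. Library totals of 13392825 to 22850491 counts set the precision, and 3 counts per library was the floor for a fold change against an age at or near 0. Floors cover counting error only. The fit was tested on simulated data.

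The collagens described and the related lists were chosen with earlier results of these data known. Named genes were all 7 collagens, the 2 genes most like each tested one, and the 2 genes of each list with the smallest adjusted p per direction and comparison. The labels number the libraries 1 to 3 within each age without saying that a number marks a shared source, and same-numbered libraries did not deviate together (r from -0.0649 to 0.0521). The alternatives were DESeq2 1.42.0, other scalings, no filter, fewer ages in the fit, a replicate block, leaving out each library, and, added after the data were seen, the reads recovered from the normalized table. Promoter sequences and names came from RefSeq on GRCr8, where all 7 collagens matched by symbol, and no GRCr8 coordinate was mixed with those of rn6.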

Additional observations from a re-analysis of the deposited data

How the results depend on the processing

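Across the 6 tested collagens and 3 comparisons, 288 values were recomputed under the alternatives, and 279 kept their direction and side of the threshold, including every alternative for 13 of the 18 results. Col8a1 between adult and fetal cells passed the threshold with DESeq2 (log2 -0.68), with library size alone (-0.76) and with the replicate block (-0.61, edgeR adjusted p = 0.0388). Over the fits that each left out 1 library it ranged from -0.98 to -0.49, around -0.68 in the main fit. Col4a1 between adult and fetal cells passed with library size alone (-0.39) and ran from -0.53 to -0.17 without 1 library. Over the same fits Col18a1 between neonatal and fetal cells ranged from 0.28 to 0.51 (main 0.42), past the threshold only without adult replicate 1. Col8a1 in that comparison ranged from -0.00091 to 0.49 (main 0.30). Col15a1 between adult and neonatal cells was 0.028 with library size alone, uncalled as before. The assembly list gave 2 to 10 calls between neonatal and fetal cells without 1 library. Per kilobase, the Col4a1 share of collagen reads was 1.65 percentage points higher in neonatal than in fetal cells, against 2.17 from reads. The replicate numbers share only a number, and the block changed no other call among the 6 tested collagens. With it the calls were 5 higher and 0 lower for the assembly list between neonatal and fetal cells, 0 and 5 for the fibrillar collagens and 11 and 1 for the proteases between adult and fetal cells, and 1 and 4 for the other non-fibrillar collagens between adult and neonatal cells. Without the filter, Col9a1 had fitted log2 fold changes of -5.05 and -7.65 for neonatal and adult against fetal cells, which are no bounds. Reads recovered from the normalized table, chosen after seeing the data, equalled the deposited counts in 100% of values in every library. They gave the same 4114, 7987 and 7197 called genes and were no independent check, though their values are among the 288. Depth limits Col9a1 and the adult values of Col4a3 and Col4a4. Over all genes, 4114 were called between neonatal and fetal cells, and 2607, 2476 and 2575 without neonatal replicates 1, 2 or 3.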
